A study of Mus musculus with 19 samples.

Results

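The lymphoid and myeloid transcription factor genes Spi1, Cebpa, Irf8, Gfi1, Ikzf1, Satb1, Bcl11a, Tcf3, Ebf1 and Tcf7 were followed through 2 stages of blood formation at 2 ages. They were taken by symbol from a count table of 25124 genes. All 10 were found, each on 1 line of the table, and all 10 passed the filter on low counts that kept 14720 genes. All cells came from C57BL/6 mice, and the labels name no engineered allele and no treatment. The 4 groups were hematopoietic stem cells (HSC) of fetal liver at E14.5 and of adult bone marrow at 12 weeks, and, from the same 2 sources, multipotent progenitors primed for lymphoid fates (LMPP). All groups were sorted as lineage-negative cells with c-Kit and Sca-1. HSC were further gated on CD150 without CD48 or Flt3, and LMPP on CD48 and Flt3 without CD150. CD11b-positive cells were removed in the adult gates, and the gates described for fetal liver lack this step. RNA-seq covered 3 adult HSC, 2 fetal HSC, 3 adult LMPP and 3 fetal LMPP libraries, described as biological replicates, with 19.8 to 64.8 M counts each. ATAC-seq, in which a transposase marks open chromatin, had 2 libraries per group and gave 1 peak list per group.

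Spi1, an ETS factor, and Cebpa (C/EBPα), a basic leucine zipper factor, drive myeloid genes, and the interferon regulatory factor Irf8 directs monocyte and dendritic cell fates. Gfi1, a zinc finger repressor, restrains stem cell cycling and supports both neutrophil and lymphoid development. Ikzf1 (Ikaros), Satb1 and Bcl11a prepare chromatin of multipotent cells for lymphoid genes, the E protein Tcf3 (E2A) and then Ebf1 set up the B cell programme, and Tcf7 opens the T cell programme. The Id proteins bind E proteins and keep them off DNA.

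Markers of the sorted populations followed their gates. The summed level of 8 HSC markers was 1692 to 2179 counts scaled to a common library total of 1 M (CPM) in HSC libraries and 252 to 533 CPM in LMPP libraries. The 8 LMPP markers, of which Satb1 is 1, summed to 262 to 382 CPM in adult HSC, 598 to 634 in fetal HSC, 5493 to 5928 in adult LMPP and 2416 to 2818 in fetal LMPP. Dntt, an LMPP marker that encodes the lymphoid enzyme TdT, had 0 counts in every fetal LMPP library. Of the markers of mature lymphocytes, Ms4a1 and Cd3e were at 0 in every library and Pax5 in every HSC library, but others were detected. Summed T and NK cell markers were 18.7 to 28.9 CPM in HSC libraries, 113 to 150 in adult LMPP and 56.2 to 73.4 in fetal LMPP. The kinase gene Lck was higher in LMPP than in HSC (3.18 on the log2 scale in adult marrow and 2.06 in fetal liver, both called). Klrb1c was called lower in fetal LMPP than in fetal HSC (-4.08), and Cd4 and Cd8a were called at neither age. On the third principal component, which held 10.4% of the variance, 3 libraries stood apart from their groups. These were adult HSC 3 (score -89.1), fetal LMPP 1 (-57.5) and adult LMPP 3 (-24.5), while the other 8 libraries lay between -5.96 and 51.4. Calls of the 10 factors and counts of the gene lists that change without these 3 libraries are given both ways.

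Across the 4 comparisons most calls were between stages rather than between ages. A gene was called at an adjusted p under 0.05 in edgeR's quasi-likelihood test with Benjamini-Hochberg adjustment over all genes. In fetal against adult HSC, 2 of the 10 factors were called, both higher, where 4.95% of all genes were called (2.07% higher and 2.89% lower). For the same comparison in LMPP 1 was called, higher, where 15.4% of all genes were called (7.08% higher and 8.29% lower). From HSC to LMPP, 6 of 10 were higher in adult marrow, with 17.1% of all genes called (7.76% higher and 9.33% lower). In fetal liver 4 were higher and 1 was lower, with 18.1% of all genes called (8.21% higher and 9.85% lower). The numbers called without the 3 libraries that stood apart were 5 and 4 between ages in HSC and LMPP, and 8 and 7 between stages in adult marrow and fetal liver. Over all genes, calls in that fit also rose, in the same order from 729, 2263, 2516 and 2658 to 2337, 4410, 4308 and 5549. The counts of gene lists given below without these libraries come from the same fit. Shares of all genes by direction were not computed for that fit, so its counts of factors and listed genes stand beside these totals only. The median log2 difference of the 10 factors was 1.96 in adult and 1.07 in fetal LMPP against HSC, beside -0.05 and -0.08 over all genes. It was 1.29 in fetal against adult HSC (0.75 with Ebf1, which had 0 counts in adult HSC, set at its lower bound) and 0.17 in fetal against adult LMPP, beside 0 over all genes. Comparisons that use the same group share its libraries, so they are not independent of each other. In bulk RNA, fewer cells with a transcript and less of it per cell cannot be told apart.

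**Figure D1:**
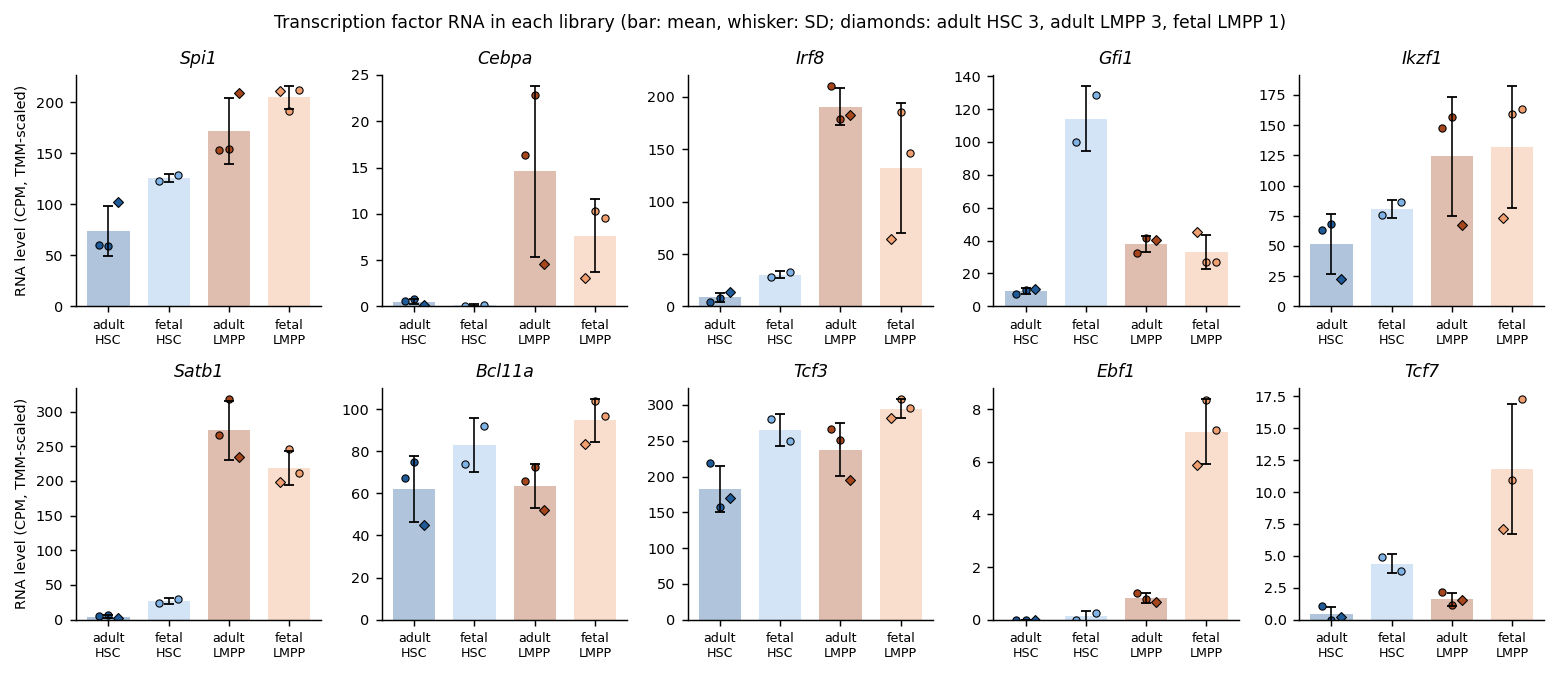
RNA level in CPM on linear axes for each of the 10 factors. Bars are group means, whiskers SD, points single libraries, and diamonds mark adult HSC 3, adult LMPP 3 and fetal LMPP 1. Gfi1 is highest in fetal HSC (100.0 and 128 CPM), while Satb1 and Irf8 are highest in LMPP of both ages.

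Gfi1 had the larger of the 2 called differences between fetal and adult HSC. Its levels were 7.23, 10.2 and 10.8 CPM in the adult HSC libraries, 100.0 and 128 in fetal HSC, 32.6, 41.6 and 40.2 in adult LMPP, and 45.05, 27.2 and 26.7 in fetal LMPP. The fetal HSC libraries lay above all 9 others and the adult HSC libraries below all others, while the LMPP groups overlapped. Fetal HSC carried 12.1-fold the adult mean, a log2 difference of 3.60 ± 0.29 (SE; adjusted p = 0.000113, edgeR). From HSC to LMPP the gene moved in opposite directions at the 2 ages. It rose in adult marrow by 2.02 ± 0.26 on the log2 scale (adjusted p = 0.000626, edgeR) and fell in fetal liver, with a log2 difference of -1.79 ± 0.28 (adjusted p = 0.00255, edgeR). Between fetal and adult LMPP the log2 difference was -0.21 ± 0.25 (adjusted p = 0.631, edgeR; 95% interval -0.77 to 0.35). The test of the difference itself, the fetal-adult difference in LMPP minus that in HSC (the interaction), gave -3.81 ± 0.38 (adjusted p = 0.00202, edgeR). In that test 2 of the 10 factors were called, both lower, against 0.931% of all genes (0.387% higher and 0.543% lower).

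The count table sets the Gfi1 start at the right end of chr5:107716655-107724343 (mm10, minus strand), and RefSeq lists a further start at an offset of -1462 bases. A peak at chr5:107725201-107726498 covered this upstream start in the fetal HSC, adult LMPP and fetal LMPP lists. The adult HSC list, from the group with the lowest Gfi1 RNA, held no peak there. The 250 bases before the upstream start are shown because this is the 1 factor whose start-site peak was missing from a single list (RefSeq, GRCm38.p6, gene strand). Capitals mark a C/EBP motif match (TTGCNNAA) at -143 to -136 and an E-box match (CAGGTG, on the opposite strand) at -42 to -37.

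Gfi1, upstream start: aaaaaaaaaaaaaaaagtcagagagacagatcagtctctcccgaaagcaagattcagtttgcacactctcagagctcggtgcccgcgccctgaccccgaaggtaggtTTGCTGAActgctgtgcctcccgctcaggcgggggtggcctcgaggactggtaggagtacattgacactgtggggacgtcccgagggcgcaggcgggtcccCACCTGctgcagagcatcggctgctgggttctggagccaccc

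Matches to TTGCNNAA occurred in 9.56% and to CAGGTG in 17.2% of 32851 RefSeq windows of this length, searched on both strands, so such letters are common. The peak had a signal of 4.11 in the fetal HSC list, percentile 5.26 of that list, and stood at percentiles 32.4 and 34.8 of the adult and fetal LMPP lists. A region at -35.1 kb was in all 4 lists and ranked between percentiles 85.0 and 95.3 of each. A region at -25.4 kb was in every list but that of fetal LMPP.

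Satb1, which organises chromatin loops of lymphoid genes, rose with the LMPP stage at both ages. Levels were 4.88, 6.12 and 2.29 CPM in adult HSC, 24.0 and 30.5 in fetal HSC, 266, 318 and 234 in adult LMPP, and 198, 246 and 211 in fetal LMPP. Every fetal HSC library was above every adult HSC library, every LMPP library was above both, and the LMPP groups overlapped. Fetal HSC held 6.15-fold the adult mean, a log2 difference of 2.64 ± 0.33 (adjusted p = 0.00115, edgeR). The rise from HSC to LMPP was 5.96 ± 0.36 in adult marrow (adjusted p = 7.6e-06, edgeR) and 3.00 ± 0.36 in fetal liver (adjusted p = 0.000802, edgeR). The fetal-adult difference was -0.32 ± 0.29 in LMPP, and the interaction was -2.96 ± 0.44 (adjusted p = 0.0138, edgeR). Without fetal HSC 2 the interaction missed the threshold (-2.77, adjusted p = 0.099). Leaving out any 1 of the other 10 libraries did not end that call.

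The Satb1 start (chr17:51736187-51832647, minus strand) lay under a peak in all 4 lists, including that of adult HSC, where its RNA was lowest. The window before it is shown as that of a factor with a 61.6-fold range of mean RNA between adult HSC and adult LMPP. It is 80.8% G and C. It held no match to the 11 motifs searched, on both strands, for the factors of the list, so no letter is in capitals. RefSeq lists other Satb1 starts inside the gene, at offsets of 6059, 20463 and 20593 bases, with no peak over them in any list. Windows before these starts held matches to Tcf3, Gfi1 and Ikzf1 motifs and are not shown. Each of these motifs occurred in 8.87% to 21.6% of all windows.

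Satb1: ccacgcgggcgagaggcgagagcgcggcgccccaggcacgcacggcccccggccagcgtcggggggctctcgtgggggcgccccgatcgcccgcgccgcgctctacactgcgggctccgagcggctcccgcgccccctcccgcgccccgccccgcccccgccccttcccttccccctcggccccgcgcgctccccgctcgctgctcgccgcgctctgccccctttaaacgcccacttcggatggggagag

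The remaining Satb1 regions lay inside the gene. Those at 18.2 and 19.4 kb were in all 4 lists. The region at chr17:51762402-51762868 was in every list but that of fetal HSC, and each of 4 others was in 1 list.

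Irf8 rose in LMPP at both ages, and its fetal-adult difference in HSC lay just outside the threshold. Its levels were 4.25, 7.68 and 13.6 CPM in adult HSC, 27.8 and 32.7 in fetal HSC, 211, 179 and 182 in adult LMPP, and 64.4, 186 and 146 in fetal LMPP. Fetal HSC libraries lay above adult HSC libraries, and the LMPP groups overlapped through fetal LMPP 2. The fetal-adult difference in HSC was 1.82 ± 0.47 (adjusted p = 0.0527, edgeR). It was called without adult HSC 3 (adjusted p = 0.015) and without the 3 libraries that stood apart (adjusted p = 0.00052). With all libraries it was also called by DESeq2 (adjusted p = 0.0032) and in edgeR with a replicate block (adjusted p = 0.038). A term for the 3 libraries (0.04), no filter on low counts (0.044) and a filter of 2 CPM in 3 libraries (0.047) also called it in edgeR. Upper quartile scaling and a fit of only the groups compared did not. From HSC to LMPP, Irf8 rose by 4.48 ± 0.48 in adult marrow (adjusted p = 2e-04, edgeR) and by 2.13 ± 0.51 in fetal liver (adjusted p = 0.0173, edgeR). The fetal rise was lost without fetal HSC 1 or fetal HSC 2 (adjusted p = 0.12 each) or fetal LMPP 2 (adjusted p = 0.052). The interaction of -2.35 ± 0.63 was not called (adjusted p = 0.13, edgeR), but was without adult HSC 3 (adjusted p = 0.042) and without the 3 libraries (adjusted p = 0.0052). Summed macrophage and dendritic cell markers, cells in which Irf8 is active, were 14.0 to 43.2 CPM in adult HSC and 22.4 to 27.7 in fetal HSC. They were 66.0 to 79.2 CPM in adult LMPP and 83.2 to 184 in fetal LMPP. Single markers went both ways between these groups. Siglech (6.16) was called higher in fetal LMPP, Cd68 (-1.39) and C1qb (-2.71) were called lower, and 7 were not called. Of these 10 markers Siglech was at 0 in both HSC groups, Xcr1 in adult HSC and Itgax in fetal HSC, and none was at 0 in LMPP. Their part in the Irf8 levels was not tested.

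The Irf8 gene (chr8:120736358-120756692) had a peak over its start in all 4 lists. Its 250-base window is shown for 1 match to a Gfi1 motif (AATCNNNGC, in capitals, on the opposite strand) at -127 to -119, a motif present in 8.87% of all windows.

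Irf8: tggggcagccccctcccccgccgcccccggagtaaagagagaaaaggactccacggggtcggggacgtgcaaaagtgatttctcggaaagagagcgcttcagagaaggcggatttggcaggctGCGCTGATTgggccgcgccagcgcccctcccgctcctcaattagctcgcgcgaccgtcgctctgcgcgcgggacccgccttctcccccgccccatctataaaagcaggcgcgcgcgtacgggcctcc

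Distal Irf8 regions differed between lists more than its start did. Of 10 regions nearest to Irf8, only the start-site region was in all 4 lists. The region at 56.6 kb downstream was in the adult LMPP list only, and those at 15.9, 71.5 and 86.8 kb were in the adult HSC list only. The fetal LMPP list, the shortest with 37156 peaks, held 2 of the 10. Whether distal regions of other genes vary as much between lists was not counted.

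Spi1 was present in every group and rose in adult LMPP. Levels were 60.5, 59.4 and 102 CPM in adult HSC, 123 and 129 in fetal HSC, 153, 154 and 209 in adult LMPP, and 211, 192 and 212 in fetal LMPP. No HSC library reached the lowest LMPP library, and the LMPP groups overlapped. The adult rise of 1.22 ± 0.22 was called (adjusted p = 0.0039, edgeR), while the fetal difference of 0.70 ± 0.25 was not (adjusted p = 0.0724, edgeR). Fetal against adult HSC gave 0.77 ± 0.24 (adjusted p = 0.106, edgeR), and without adult HSC 3, the highest of its group, it was called (1.07, adjusted p = 0.0064). Without the 3 libraries that stood apart Spi1 was called in all comparisons. The log2 differences were then 1.06 in fetal against adult HSC (adjusted p = 0.0002), 0.38 in fetal against adult LMPP (adjusted p = 0.016), 0.67 in fetal LMPP against HSC (adjusted p = 0.00098) and -0.67 for the interaction (adjusted p = 0.027). A region at -13.6 kb, where the nearest start belongs to another gene, was in all 4 lists and was picked out after its values were seen.

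Cebpa was near the limit of detection in HSC and appeared in LMPP. Levels were 0.634, 0.748 and 0.183 CPM in adult HSC, 0.0393 and 0.195 in fetal HSC, 16.3, 22.9 and 4.58 in adult LMPP, and 3.09, 10.3 and 9.52 in fetal LMPP. A level of 3 counts was worth 0.0498 to 0.152 CPM depending on the library, so 1 fetal HSC library was under that floor. All LMPP libraries were above all HSC libraries, with log2 differences of 4.84 ± 0.82 in adult marrow (adjusted p = 0.00286, edgeR) and 5.86 ± 1.09 in fetal liver (adjusted p = 0.00575, edgeR). The fetal call was lost without fetal HSC 1 (adjusted p = 0.056). Fetal and adult groups overlapped at both stages, with log2 differences of -1.96 ± 1.01 in HSC and -0.93 ± 0.69 in LMPP, neither called. Without the 3 libraries that stood apart, fetal HSC was called lower (-2.37, adjusted p = 0.02). The Cebpa start-site region and those at -20.4 and 5.62 kb were in all 4 lists, the HSC lists included.

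**Figure D2:**
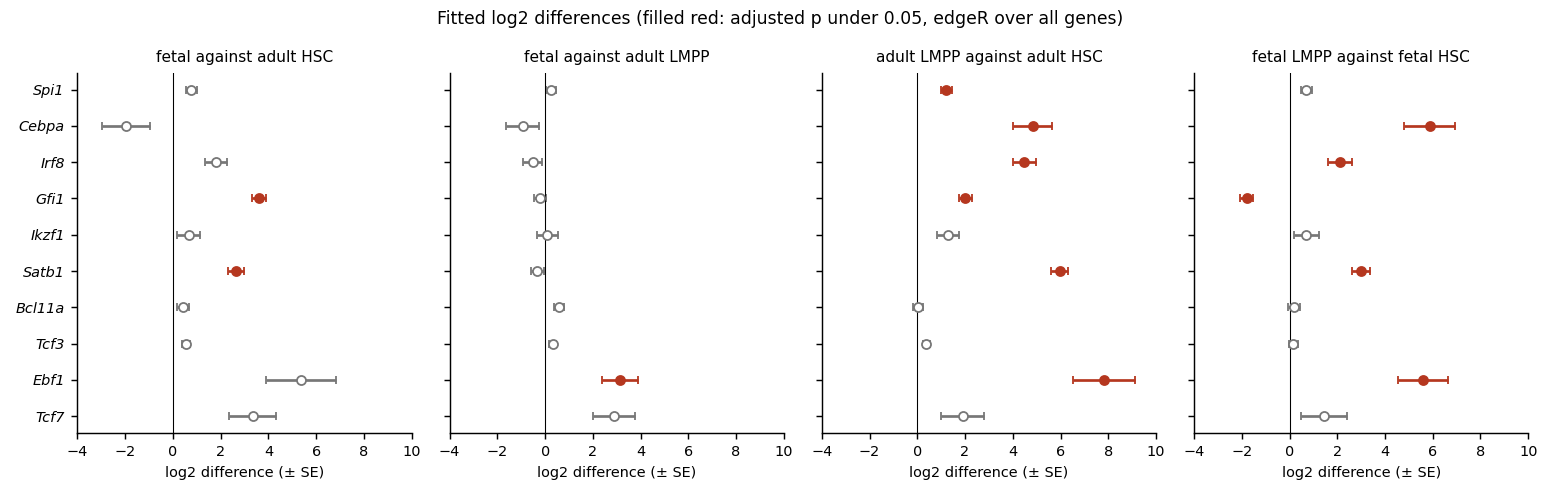
Fitted log2 differences (points) with SE (lines) for the 10 factors in the 4 comparisons, on shared axes. Filled red points have an adjusted p under 0.05, and Gfi1 is the only one of them to the left of 0, in fetal LMPP against fetal HSC. The wide lines of Ebf1 and Tcf7 belong to genes with few counts in HSC.

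Ebf1 RNA was found almost only in LMPP and was highest in fetal liver. It had 0 counts in all 3 adult HSC libraries and in fetal HSC 1, and 11 counts (0.268 CPM) in fetal HSC 2. Levels were 1.01, 0.784 and 0.655 CPM in adult LMPP and 5.88, 8.35 and 7.22 CPM in fetal LMPP. Fetal LMPP libraries lay above all others, with 8.76-fold the adult LMPP mean and a log2 difference of 3.13 ± 0.77 (adjusted p = 0.0278, edgeR). That call ended when any 1 of the 6 LMPP libraries was left out, adult or fetal, with adjusted p between 0.052 and 0.088, while the log2 difference stayed between 2.99 and 3.29. Adult LMPP were at least 10.1-fold higher than adult HSC, counted against a floor of 3 counts per library (adjusted p = 0.00429, edgeR). Fetal LMPP exceeded fetal HSC by 5.58 ± 1.05 on the log2 scale (adjusted p = 0.00947, edgeR). The fetal-adult HSC difference was not called (adjusted p = 0.0802, edgeR) and rests on the 11 counts of fetal HSC 2. It passed the threshold without fetal HSC 1 (adjusted p = 0.02). B cell markers, Cd79a, Cd79b and Cd22 among them, summed to 37.7 to 89.8 CPM over all 4 groups, with Ms4a1 at 0 throughout. Their part in the Ebf1 level was not tested.

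The Ebf1 start (chr11:44618100-45008096) had a peak within 1000 bases in all 4 lists, also in the HSC lists where the RNA was at or near 0. In no list did a peak cover the start itself. A region at -0.968 kb was in all 4 lists and 1 at 0.332 kb in those of adult HSC and fetal LMPP. Neither reached the 250 bases before the start. The window is shown for 1 match to an interferon-response motif (GAAA, any 2 bases, then GAAA, in capitals, on the opposite strand) at -155 to -146, found in 2.98% of all windows.

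Ebf1: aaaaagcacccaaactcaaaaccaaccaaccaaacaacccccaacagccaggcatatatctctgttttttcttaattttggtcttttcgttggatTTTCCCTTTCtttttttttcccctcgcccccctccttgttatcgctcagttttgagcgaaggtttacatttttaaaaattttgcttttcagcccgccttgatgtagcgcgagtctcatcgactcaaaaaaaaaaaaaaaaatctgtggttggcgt

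Inside the first 100 kb of Ebf1 no region beyond the start site was in all 4 lists. Regions at 20.3 and 89.6 kb were in the fetal LMPP list only, the region at 64.1 kb in both LMPP lists, that at 47.3 kb in both fetal lists and that at 78.8 kb in both HSC lists. The region at 6.69 kb was in the fetal HSC and adult LMPP lists, and that at 66.6 kb in every list but that of fetal LMPP. The regions at 20.3 and 89.6 kb were weak, at percentiles 5.38 and 10.5 of their list.

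Tcf7 was low in every group, with its highest levels in fetal LMPP. Levels were 1.08, 0 and 0.233 CPM in adult HSC, 4.92 and 3.85 in fetal HSC, 2.17, 1.18 and 1.51 in adult LMPP, and 7.14, 10.97 and 17.3 in fetal LMPP. At each stage every fetal library was above every adult library, and no comparison was called in the main edgeR fit. Fetal against adult gave 3.34 ± 0.97 in HSC (adjusted p = 0.0844, edgeR) and 2.87 ± 0.89 in LMPP (adjusted p = 0.052, edgeR). DESeq2 called both (adjusted p = 0.0087 and 0.006). In LMPP edgeR called it with a filter of 2 CPM in 3 libraries (adjusted p = 0.048) or only the groups compared (adjusted p = 0.0064). Neither of these settings called it in HSC. No filter on low counts, upper quartile scaling and a replicate block called it at neither stage. Without adult HSC 1 the HSC difference was called (5.0, adjusted p = 0.02), as was adult LMPP against HSC (3.56, adjusted p = 0.029). Without the 3 libraries that stood apart the LMPP difference was called (3.08, adjusted p = 0.038). Tcf7 (chr11:52252283-52283014, minus strand) was the only factor without a start-site peak in any list. A region at -35.8 kb was in all 4 lists.

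Ikzf1, Tcf3 and Bcl11a were well expressed in every group, and in the main edgeR fit none was called in any comparison. DESeq2 on all 11 libraries called Ikzf1 higher in adult LMPP than in adult HSC (1.28, adjusted p = 0.022). With a term for the 3 libraries that stood apart, edgeR called Ikzf1 higher in LMPP at both ages (adjusted p up to 0.00028). That fit also called Tcf3 higher in adult LMPP than in adult HSC (adjusted p = 0.04). It called Bcl11a higher in fetal than in adult LMPP (adjusted p = 0.0048). Other filters, upper quartile scaling and a replicate block called none. Ikzf1 stood at 63.4, 67.9 and 22.9 CPM in adult HSC, 75.6 and 86.1 in fetal HSC, 148, 157 and 67.7 in adult LMPP, and 73.3, 159 and 163 in fetal LMPP. In each group with a library that stood apart, that library had the lowest Ikzf1 level. The LMPP-HSC difference was 1.28 ± 0.46 in adult marrow (adjusted p = 0.084, edgeR) and 0.71 ± 0.51 in fetal liver (adjusted p = 0.371, edgeR). Without the 3 libraries both were called, at 1.21 (adjusted p = 9.5e-05) and 0.99 (adjusted p = 0.00029). Without adult LMPP 3 alone the adult difference was called (1.57, adjusted p = 0.044). Between fetal and adult LMPP the Ikzf1 difference was 0.09 ± 0.45, and its sign changed when a single library was left out.

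**Figure D3:**
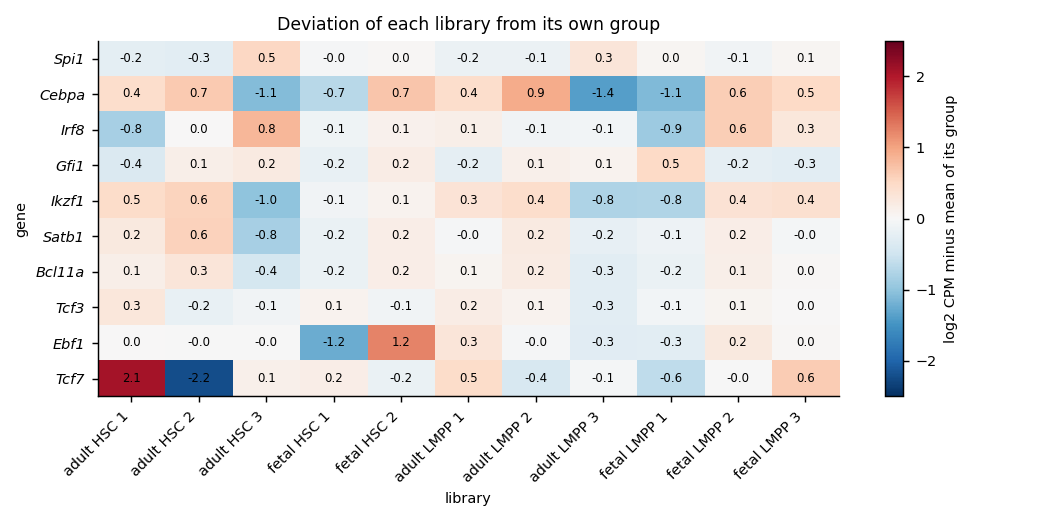
Each cell is the log2 CPM of a factor in a library minus the mean of that library's group, in log2 units. Ikzf1 and Cebpa are below 0 in adult HSC 3, adult LMPP 3 and fetal LMPP 1, while Spi1 is at or above 0 in these 3 libraries.

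Ikzf1 has a second RefSeq start at an offset of 4252 bases, and a peak covered it in both LMPP lists and in neither HSC list. That window is shown as the other start site whose peak differed between lists. It held no match to the 11 motifs.

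Ikzf1, second start: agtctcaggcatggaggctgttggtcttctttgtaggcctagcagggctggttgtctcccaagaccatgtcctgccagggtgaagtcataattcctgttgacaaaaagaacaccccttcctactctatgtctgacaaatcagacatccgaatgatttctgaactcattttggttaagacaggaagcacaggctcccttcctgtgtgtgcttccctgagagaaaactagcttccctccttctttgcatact

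This peak was weak, at percentiles 1.43 and 0.904 of the adult and fetal LMPP lists, whereas the peak over the first start was in all 4 lists.

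Tcf3 had the highest length-scaled level of the 10 factors in adult HSC, 55.5 counts per kilobase of exon and 1 M counts (RPKM), with Spi1 next at 51.1 RPKM. In fetal HSC Spi1 led at 86.8 RPKM, above Tcf3 at 80.7 RPKM. Spi1 also led in LMPP, at 119 RPKM in adult and 142 RPKM in fetal cells, above Tcf3 at 72.3 and 89.8 RPKM. Tcf3 levels were 219, 158 and 170 CPM in adult HSC, 281 and 250 in fetal HSC, 267, 251 and 195 in adult LMPP, and 281, 308 and 295 in fetal LMPP. Fetal libraries lay above adult ones at both stages, by 0.54 ± 0.18 in HSC (adjusted p = 0.125, edgeR) and 0.31 ± 0.16 in LMPP (adjusted p = 0.224, edgeR). Tcf3 was called higher in adult LMPP than in adult HSC without the 3 libraries (0.45, adjusted p = 0.044). Bcl11a ranged from 44.8 to 104 CPM over all libraries. Its fetal-adult difference was 0.42 ± 0.24 in HSC (adjusted p = 0.399, edgeR) and 0.58 ± 0.22 in LMPP (adjusted p = 0.0964, edgeR), the latter called without the 3 libraries (0.52, adjusted p = 0.019). Its LMPP-HSC differences were 0.03 ± 0.21 in adult marrow and 0.19 ± 0.24 in fetal liver, with 95% intervals of -0.45 to 0.50 and -0.35 to 0.72.

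Relatives of the 10 factors were counted from a list of 29, of which 24 were tested. Their median log2 difference was 0.17 in fetal against adult HSC, -0.18 in fetal against adult LMPP, 0.12 in adult and -0.32 in fetal LMPP against HSC. In the fit without the 3 libraries that stood apart 23 were tested, and 4 were higher and 4 lower in fetal against adult HSC, 3 and 6 in fetal against adult LMPP, 3 and 3 in adult and 4 and 8 in fetal LMPP against HSC, and 0 and 5 in the interaction. With all libraries 3 were higher in fetal against adult HSC and none lower. Ikzf2 (Helios), a relative of Ikzf1, was at 6.56 ± 2.00 CPM in adult HSC (SD, n = 3), 53.7 ± 7.46 in fetal HSC (n = 2), 10.7 ± 0.623 in adult LMPP (n = 3) and 10.2 ± 4.10 in fetal LMPP (n = 3). Its fetal-adult HSC difference was 3.04 ± 0.35 (adjusted p = 0.000728, edgeR) and its interaction -3.11 ± 0.46 (adjusted p = 0.0138, edgeR). The interaction was lost without fetal HSC 1 or fetal HSC 2 (adjusted p = 0.053 to 0.11). Cebpd (1.36, adjusted p = 0.0298, edgeR) and Irf4 (at least 14.97-fold, adjusted p = 0.0364, edgeR) were also higher in fetal HSC. Cebpd lost its call without adult HSC 1, adult HSC 2 or either fetal HSC library (adjusted p = 0.088 to 0.22), and Irf4 without any 1 of the 5 HSC libraries (adjusted p = 0.072 to 0.16).

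Between fetal and adult LMPP 1 relative was higher in fetal cells and 6 were lower. Cebpb, a C/EBP factor of emergency granulopoiesis, was higher by 1.45 ± 0.26 (adjusted p = 0.0049, edgeR), beside -0.93 for Cebpa, which was not called. The lower relatives were Irf7 (-1.44), Irf9 (-1.23), Irf1 (-0.92), Irf2 (-0.66), the ETS factor Spic (4.59 to 0.236 CPM) and the E protein Tcf4 (-0.56). The call of Spic ended without fetal LMPP 3 (adjusted p = 0.054). Tcf4 lost its call without adult LMPP 1 or 2 or fetal LMPP 1 or 3 (adjusted p = 0.072 to 0.093), and Irf2 without any LMPP library but adult LMPP 3 (adjusted p = 0.068 to 0.11).

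From HSC to LMPP, 4 relatives rose and 2 fell in adult marrow, and 2 rose and 5 fell in fetal liver. Gfi1b, the erythroid and megakaryocyte relative of Gfi1, fell from 231 to 53.7 CPM in adult marrow (-2.10 ± 0.33, adjusted p = 0.0017, edgeR) and from 109 to 41.6 CPM in fetal liver (-1.38 ± 0.35, adjusted p = 0.0218, edgeR). The fetal fall was lost without fetal HSC 1, fetal HSC 2 or fetal LMPP 2 (adjusted p = 0.072 to 0.12). In adult marrow Gfi1b fell while Gfi1 rose, and in fetal liver both fell. Tcf4 rose in adult marrow (1.03) and in fetal liver (0.70), the latter not without fetal HSC 1, fetal HSC 2 or fetal LMPP 2 (adjusted p = 0.052 to 0.13). Ikzf2 fell in fetal liver (-2.40). Cebpd (1.35), Irf1 (0.69) and Irf4 rose in adult marrow, and Irf5 (1.06) rose and Irf7 (-0.98) and Irf2 (-0.66) fell in fetal liver. The call of Irf1 ended without adult HSC 1 or adult LMPP 3 (adjusted p = 0.062 to 0.075), and that of Irf4 without any 1 adult HSC library, without adult LMPP 2, without the 3 libraries that stood apart or with a replicate block (adjusted p = 0.061 to 0.13). Irf4 had 0, 27 and 3 counts in the adult LMPP libraries and 0 in each adult HSC library, so that rise rests on adult LMPP 2. Those of Irf5 and Irf7 ended without either fetal HSC library or fetal LMPP 2 or 3 (adjusted p = 0.056 to 0.17), and that of Irf2 without any 1 of the 5 fetal libraries (adjusted p = 0.074 to 0.25).

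**Figure D4:**
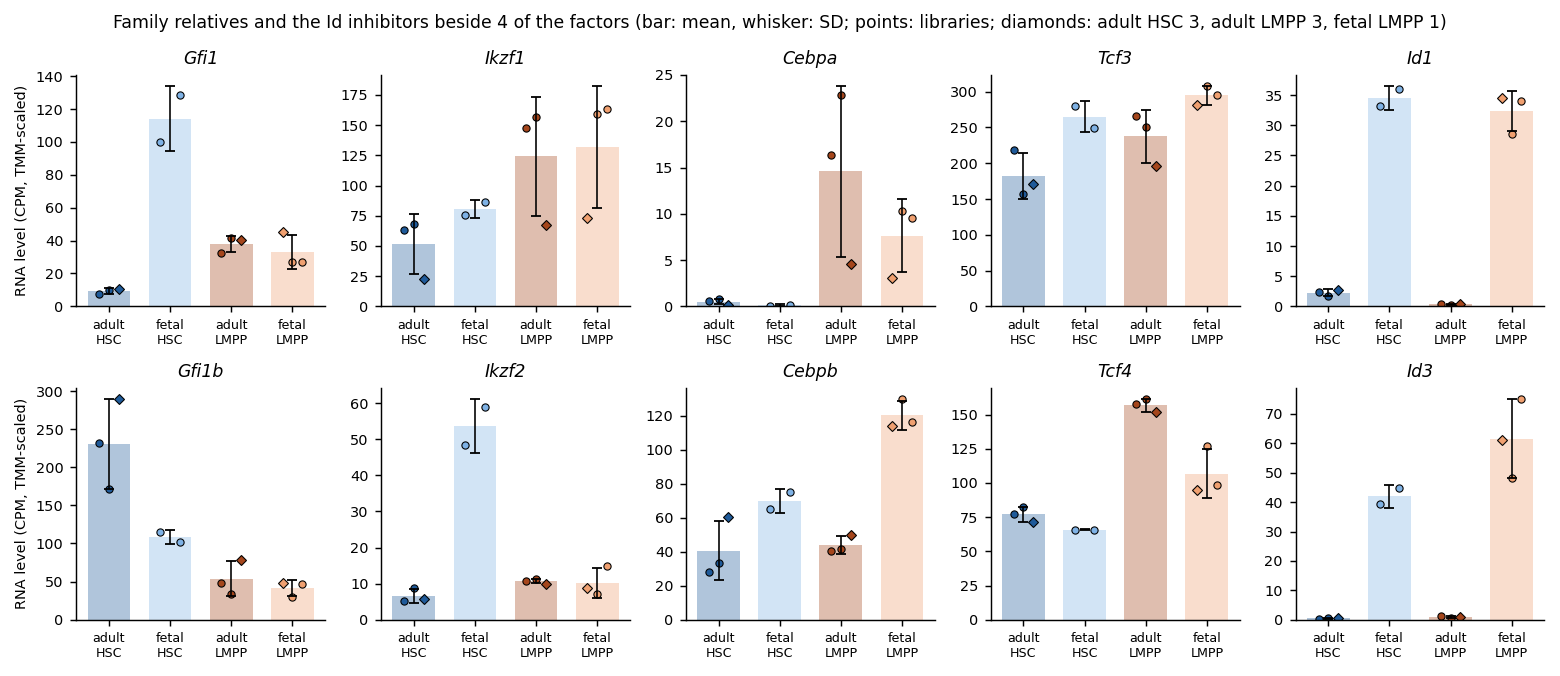
RNA level in CPM of Gfi1, Ikzf1, Cebpa and Tcf3 above a relative of each, with Id1 above Id3. Bars are means, whiskers SD and points libraries. Ikzf2 is highest in fetal HSC at 53.7 CPM and Gfi1 at 114 CPM, and Id1 and Id3 are high in both fetal groups.

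Partners and antagonists were counted over 28 regulators, of which 26 were tested, with list medians between -0.0016 and 0.07. With the 3 libraries that stood apart left out 5 were higher and 4 lower in fetal against adult HSC, 6 and 5 in fetal against adult LMPP, 8 and 9 in adult and 9 and 6 in fetal LMPP against HSC, and 4 and 2 in the interaction. With all libraries, fetal against adult HSC had 2 calls, Id3 (6.31 ± 0.43, adjusted p = 3.56e-05, edgeR) and Id1 (3.91 ± 0.33, adjusted p = 0.000133, edgeR), inhibitors of E proteins such as Tcf3, both higher. Between fetal and adult LMPP 5 were higher and 2 lower in fetal cells. Fetal LMPP had 32.4 ± 3.29 CPM of Id1 (SD, n = 3) where adult LMPP had 0.317 ± 0.144 (n = 3), and 61.5 ± 13.4 CPM of Id3 against 0.847 ± 0.352. Hes1, a Notch target, was higher too (4.62 ± 0.60, adjusted p = 0.000885, edgeR). From HSC to LMPP, 5 rose and 7 fell in adult marrow, led by Sox4 (1.63), Id1 (-2.91) and Gata3 (-2.13). In fetal liver 5 rose and 3 fell, led by Nfil3 (3.09), Nab2 (-2.95) and Gata3 (-1.47), the last not called without fetal HSC 2 (adjusted p = 0.087). In the interaction Hes1 (5.33) and Id1 (2.81) were higher and none lower. Both needed each fetal HSC library (adjusted p without one, 0.14 for Hes1 and up to 0.16 for Id1), and Id1 also adult HSC 1 and fetal LMPP 3.

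Myeloid genes controlled by Spi1, Cebpa and Irf8 were followed with a list of 20, all tested. In adult LMPP against HSC 12 were higher and none lower, led by Ncf1 (4.57), Cst7 (5.41) and Tyrobp (4.14), with a list median of 1.43. In fetal LMPP against HSC 8 were higher and 1 lower, led by Cst7, Ncf1 (3.53) and Fcgr2b (2.81), with a list median of 1.47. Cst7, a protease inhibitor, had means of 1.68 CPM in adult HSC, 72.5 in adult LMPP and 34.7 in fetal LMPP, and 0 and 0.0393 CPM in the 2 fetal HSC libraries. Fetal against adult HSC had 3 higher and 2 lower (list median 0.28), with Cst7 lower and Ncf1 (1.12) and Tyrobp (2.45) higher. Ncf1 lost that call without fetal HSC 2 (adjusted p = 0.14) and Tyrobp without either fetal HSC library (adjusted p = 0.06 to 0.11). Fetal against adult LMPP had 2 higher and 6 lower (list median -0.48), led by Cd300a (-1.55), Csf2ra (-1.13) and Cybb (3.53). The interaction had 1, Cst7, higher (5.43), not called without fetal HSC 2 (adjusted p = 0.099). When the 3 libraries that stood apart were left out, 6 were higher and 3 lower in fetal against adult HSC, 5 and 8 in fetal against adult LMPP, 13 and 0 in adult and 11 and 2 in fetal LMPP against HSC, and 1 and 5 in the interaction.

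Lymphoid genes were followed with a list of 25, of which 23 were tested. In LMPP against HSC 13 were higher in adult marrow and 11 in fetal liver, with none lower and list medians of 4.07 (3.48 with genes at 0 in HSC set at their bound) and 3.20. Flt3, the receptor used in the sort, was among them at both ages and is no finding. Cnn3 (4.97) was among those with the lowest p in adult marrow, and in fetal liver the recombinase gene Rag2 (at least 535-fold) and the homing receptor Ccr9 (at least 664-fold). In fetal against adult HSC, where Satb1 and Gfi1 were higher, Cnn3 (4.39) and Flt3 (1.12) were among the higher genes and none was lower, with a list median of 0.46 (0.20 at the bounds). Flt3 lost that call without either fetal HSC library (adjusted p = 0.062 to 0.095). Between fetal and adult LMPP 3 were higher and 3 lower (list median 0.44). Dntt had a mean of 1348 ± 299.8 CPM in adult LMPP (SD, n = 3) and 0 counts in fetal LMPP (adjusted p = 0.000119, edgeR), while Ebf1 moved the other way. Flt3 (-0.99) was lower in fetal LMPP too. In the interaction Cnn3 (-3.25) and Flt3 (-2.11) were lower, as Satb1 and Gfi1 were. Of the 22 tested without the 3 libraries that stood apart, 4 were higher and 1 lower in fetal against adult HSC, 5 and 3 in fetal against adult LMPP, 13 and 0 in both LMPP-HSC comparisons, and 1 and 4 in the interaction.

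Markers of other cells also moved with the fetal groups. Summed erythroblast markers were 911 to 1042 CPM in fetal HSC and 31.8 to 125 CPM in adult HSC, with Slc4a1 at 0 in the adult group. Of the 6 tested, Hbb-bt (5.07) and Hbb-bs (4.46), near-identical copies that can share reads, were called higher, while Hba-a1 (-0.25), Hba-a2 (-0.24) and Epb42 (-0.71) were not called. Itgam, which encodes CD11b, was at 33.4 ± 5.25 CPM in fetal HSC (SD, n = 2) and 3.05 ± 1.17 CPM in adult HSC (n = 3), the group gated against it. Summed neutrophil markers were 3.66 to 8.85 CPM in fetal and 0.539 to 10.02 CPM in adult HSC. Of the 7 tested, Mmp9, at 0 in adult HSC, was called higher in fetal HSC (adjusted p = 0.0388, edgeR), and 6 were not called. Fetal LMPP had 134 to 426 CPM of the erythroblast markers where adult LMPP had 21.8 to 50.3, with Slc4a1 and Epb42 at 0 in both, and Hbb-bt (3.17) and Hbb-bs (3.00) were the 2 called. For neutrophil markers the sums were 6.95 to 30.6 CPM in fetal and 0.455 to 1.57 in adult LMPP, with Ltf (6.93) and Mmp9 called, the latter at 0 in adult LMPP. Summed hepatocyte markers were 10.6 to 20.2 CPM in adult HSC, 7.35 to 55.5 in fetal HSC, 10.7 to 14.4 in adult LMPP and 10.8 to 54.9 in fetal LMPP, where Apoa1 (4.47) and Alb, at 0 in both adult groups, were called higher. The part of these cells in the higher Gfi1 and Satb1 of fetal HSC, and in the higher Ebf1, Cebpb and Cybb of fetal LMPP, was not tested, and the difference in gates cannot be told apart from age.

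Peaks at start sites were nearly as frequent in every group. Of the 10 factors, 8 had a start-site peak in the adult HSC list, against 55.9% of all 25111 genes with a usable position. In the other lists 9 had one, against 55.0% of genes for fetal HSC, 53.1% for adult LMPP and 50.1% for fetal LMPP. With 1 list per group there is no spread between replicates and no test. Together 82 regions had a factor's start as their nearest within 100 kb, of which 21 were in all 4 lists and 32 in a single list. Of the single-list regions 11 were in the adult HSC list, 6 in that of fetal HSC, 12 in that of adult LMPP and 3 in that of fetal LMPP, whose list lengths were 53068, 48286, 50579 and 37156 peaks. The median number of peaks per factor was 4.5, 5, 5 and 2.5 in the same order, against 1 per gene over all genes in each list. All genes, here and for start sites, include those that failed the filter on low counts, which all 10 factors passed. Bcl11a had the most regions, 21, of which 3 were in all lists. Tcf3 had 1 region, its start site, in all 4 lists. How many regions of other genes were in all 4 lists or in 1 was not counted, so these numbers have no share beside them.

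**Figure D5:**
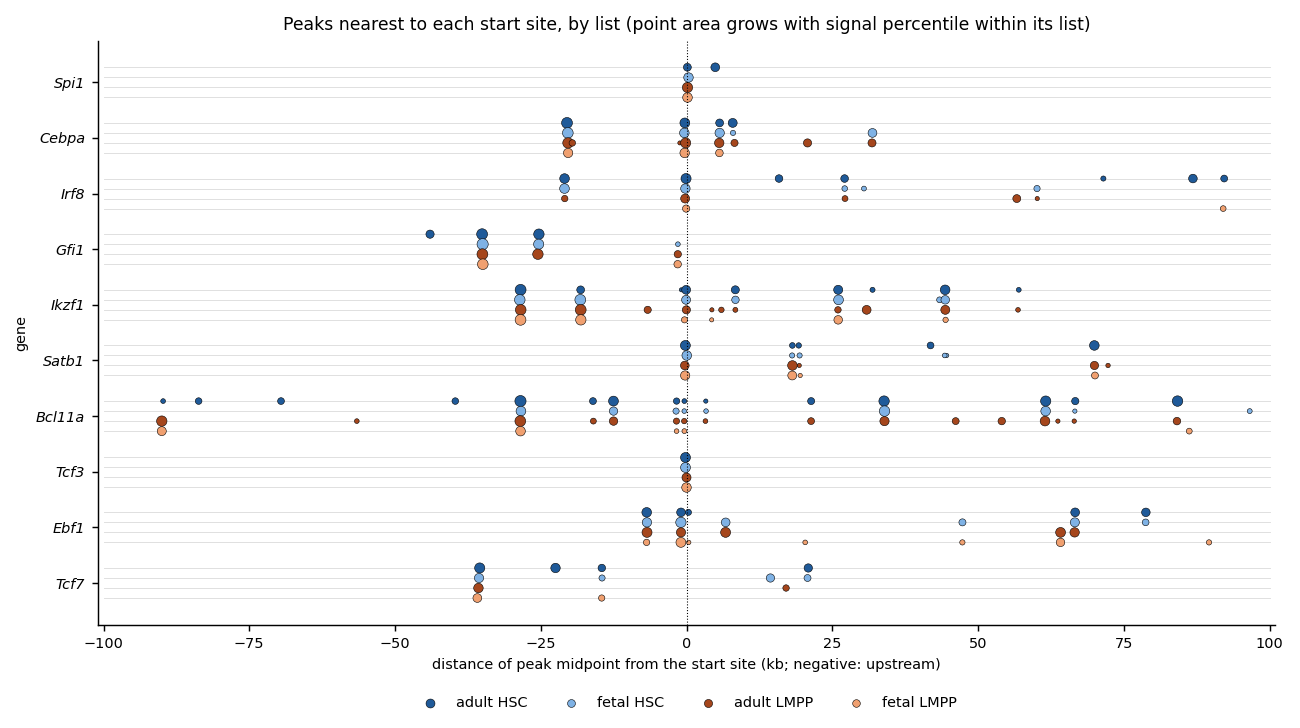
Midpoints of peaks within 100 kb of each factor's start and nearest to it, as distance in kb (negative is upstream), with 1 row of points per list. Point area grows with the percentile of the authors' signal within that list. Gfi1 has no point near 0 in the adult HSC row, and Tcf7 has none near 0 in any row.

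The genes whose RNA most resembled each factor over the 11 libraries were sought among 9475 genes whose mean level reached 10 CPM. Pearson correlations of log2 CPM describe these libraries only, since libraries share groups and depth. For Satb1 they were Padi2 (0.99) and Tnfaip8l2 (0.99), for Spi1 Ppdpf (0.99) and Rac2 (0.98), for Irf8 Pstpip1 (0.98) and Cd53 (0.97), and for Cebpa Pdgfrb (0.98) and Parvg (0.97). Gfi1 was closest to Clec4e (0.96) and Thsd1 (0.95), and Ebf1 to Rpl18 (0.98) and Eef1g (0.97). Ikzf1, lowest of its group in the 3 libraries that stood apart, was closest to Cbx3 (0.97) and Pabpc1 (0.97). Bcl11a was closest to Ddx3x (0.98) and Plcg2 (0.96), Tcf3 to Cenpj (0.96) and BC030867 (0.95), and Tcf7 to Map2k2 (0.96) and Tcf3 (0.93).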

How the data were processed

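The deposited count table, unnormalized per the file headers, gave the authors' expected count of exon reads for every gene and library. Values moved in steps of 0.5 (22.5% not whole) and were rounded. RNA libraries were made with SMART-Seq v4 and Nextera XT, per the labels' protocols. The submitters' processing notes name, without roles, MACS2, Bowtie2 2.3.5, SAMtools 1.9, HOMER, STAR, RSEM, Trim Galore, Picard and DESeq2. The 4 deposited ATAC peak lists gave each peak's signal, score and -log10 q value as the authors' caller wrote them, used only within a list, in mm10 coordinates. Pooling of replicates for peak calling is not stated in the sources used.

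In R 4.3.3, edgeR 4.0.16 fitted a means model of the 4 groups to all 11 libraries after filterByExpr and TMM scaling, with quasi-likelihood tests and Benjamini-Hochberg adjustment over 14720 genes. Levels are CPM on TMM-scaled totals, differences are log2 ± SE, and RPKM uses the table's exon lengths. Floors of 3 counts per library cover counting error only. Overlapping lines of a peak list were merged, a start-site peak lay within 1000 bases of the table's start, and other peaks went to the nearest start within 100 kb. The interaction is the fetal-adult difference in LMPP minus that in HSC. Of the 10 factors, 9 had RefSeq promoter windows, 18 in all, and 0 overlapped another gene of the table. Motifs searched on both strands were GAGGAAGT (SPI1), GGAA and GAAA 2 bases apart (SPI1 with IRF), GAAA and GAAA 2 bases apart (IRF), TTGCNNAA (C/EBP), TGGGAA (IKZF1), AATCNNNGC (GFI1), CAGGTG and CAGCTG (TCF3), TCCC and GGGA 2 bases apart (EBF1), TCAAAG (TCF7) and TGACCA (BCL11A). The members, gene lists and motifs were chosen with earlier results of these data known. Some genes that the lists count are not reported here by name. All 10 factors were named, with the 2 most similar genes of each, relatives that were called, and the 3 listed genes with the lowest p per comparison. Over 15 same-numbered pairs of libraries the deviations from group means had correlations from -0.207 to 0.472 (median 0.034). The 3 pairs over 0.1 were those of adult HSC with adult LMPP (0.153, 0.306 and 0.472). Of 30 pairs with other numbers 8 were also over 0.1, up to 0.289. Adult HSC 1 was closer to adult LMPP 2 (0.216) than to adult LMPP 1 (0.153). The pair at 0.472 joins adult HSC 3 and adult LMPP 3, which both stood apart. These values do not settle whether the numbers, from the labels' titles, pair libraries. The fit was tested on simulated counts. DESeq2 1.42.0, other filters and scaling, a replicate block and leaving out libraries were alternatives.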

Additional observations from a re-analysis of the deposited data

Results flagged for a closer look

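The fetal-adult difference was not the same in HSC and LMPP for Satb1 and Gfi1, by the test of the difference itself. For Satb1 the log2 difference was 2.64 in HSC and -0.32 in LMPP, an interaction of -2.96 ± 0.44 (SE; adjusted p = 0.0138, edgeR), with both fetal HSC libraries above the 3 adult ones and the LMPP groups overlapping. For Gfi1 it was 3.60 in HSC and -0.21 in LMPP, an interaction of -3.81 ± 0.38 (adjusted p = 0.00202, edgeR), with the same separation of libraries. The fetal HSC group has 2 libraries, and the Satb1 call ended without fetal HSC 2 (adjusted p = 0.099).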

How the results depend on the processing

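Of the values computed for the 10 factors under the alternatives, 653 kept their direction and side of the threshold, 43 newly passed it, 12 no longer did and 9 changed sign. The number of factors called in fetal against adult HSC was 2. It became 5 with DESeq2, which added Irf8, Ebf1 and Tcf7, and 2 to 4 when single libraries were left out. In fetal against adult LMPP it was 1. It became 2 with DESeq2, with a filter of 2 CPM in 3 libraries, or in a fit of only the groups compared, and 0 without any single library. Leaving out single libraries gave 3 to 5 (against 5) in fetal LMPP against HSC and 1 to 3 (against 2) in the interaction. Of the alternatives, 2 were chosen after seeing the data. Without the 3 libraries that stood apart, the number was 5 in fetal against adult HSC, 4 in fetal against adult LMPP and 4 in the interaction, and with a term for them it was 6 and 3 in the first 2 of these. Deviations from group means did not settle whether replicate numbers pair libraries. A replicate block gave 4 factors called in fetal against adult HSC and 0 in fetal against adult LMPP, with 6, 5 and 2 in the other comparisons. In adult LMPP against HSC it ended the call of Irf4 (adjusted p = 0.08) and of 2 lymphoid genes, Igll1 (0.058) and Blk (0.085), and of no other gene followed. Peaks assigned to factors whose -log10 q was at or above the median of their list were 30 of 56 in adult HSC, 26 of 46 in fetal HSC, 30 of 57 in adult LMPP and 15 of 33 in fetal LMPP. Signs changed only among uncalled values. Ikzf1 in fetal against adult LMPP ranged from -0.21 to 0.36 and Bcl11a in adult LMPP against HSC from -0.16 to 0.18 without single libraries. Bcl11a was -0.000246 with upper quartile scaling and -0.048 without the 3 libraries. The Tcf7 interaction ranged from -2.13 to 0.0934 without single libraries and was 0.0906 without the 3. Over all genes, 729 calls in fetal against adult HSC became 1535 with DESeq2, 2337 without the 3 libraries, 1923 with a term for them, and 213 to 711 without single libraries. For fetal against adult LMPP 2263 became 3407, 4410, 4985 and 1366 to 1855. For adult LMPP against HSC 2516 became 4308 without the 3 libraries, 4713 with the term and 1618 to 3097 without single libraries. For fetal LMPP against HSC 2658 became 5549, 4782 and 598 to 2006, and 4014 in a fit of only the groups compared. For the interaction 137 became 667 with DESeq2, 789, 856 and 32 to 170, and 86 with the block. A fit of only the groups compared also ended the fetal-adult HSC calls of Cebpd, Ncf1, Tyrobp and Flt3. Where these counts moved, the cause was not tested. Ebf1 without fetal HSC 2 gave no value in fetal against adult HSC, since both groups were then at 0. Depth limits Ebf1 in HSC and Cebpa in fetal HSC, with 0 to 11 counts a library.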
